A study of Homo sapiens with 4 samples.

Results

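The genes described here lie on the long arm of chromosome 18 (18q), on the telomere side of MIB1, the gene that Cas9 was directed to cut. The rule that chose them uses the annotation and a minimum of reads: protein-coding genes on chromosome 18 of GRCh38 that start after 21870953, where MIB1 ends, with a mean of at least 10 reads over the 4 libraries. Of 193 protein-coding genes in that stretch, 120 reached the minimum, 11 of these were set aside by name (SMAD2 and SMAD4 among them), and 109 remained, out of 58302 genes listed in all. Of the 73 genes under the minimum, 45 had 0 reads in every library. The comparison is with the 50 protein-coding genes on the centromere and 18p side, which start before 21704957 and met the same minimum. All 109 members and 49 of the 50 genes before MIB1 had enough reads to be tested; TXNDC2 did not.

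A double-strand break made by the nuclease Cas9 is mostly repaired within a few bases of the cut, which leaves small insertions or deletions. A break that is not rejoined can leave the part of the arm beyond it without a centromere, and that part can be lost when the cell divides. Every gene beyond the cut then loses a copy together, whatever its function, whereas genes on the centromere side keep theirs. In a mixed population such a loss would show as a slightly lower level shared by all distal genes and not by the proximal ones. The comparison asks whether these libraries hold such a pattern. A fall shared by both sides of MIB1 would not show in it.

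The cells are MIB1-iKO cells, made from NCI-H838, an established human non-small-cell lung cancer line. A piggyBac transposon in their genome holds a guide RNA against MIB1, a puromycin-resistance gene and Cas9 under a promoter induced by doxycycline (dox), and per the study's methods they were grown from single-cell clones. RNA was taken at day 3 from 2 samples without dox and 2 with dox at 0.5 μg/mL. Every sample, the controls included, thus carries the guide and the inducible Cas9 gene. Whether Cas9 was silent without dox was not examined here. No sample had dox without a MIB1 guide, so effects of dox, of Cas9 cutting and of MIB1 loss cannot be told apart. The labels name neither the clone nor which of the guides it carried, and the number of 18q copies in these cells is not given in the sources used here. Separate cultures are not named for the replicates in the labels, so p-values measure only the spread between these samples.

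Total reads lay between 15943025 and 24398411, lower in both dox libraries, and chromosome 18 took between 1.39% and 1.41% of them. Of the epithelial markers, EPCAM, KRT8, KRT18 and CDH1 were present in each library and KRT19 had 0 reads. The lung markers NKX2-1, SFTPB and SFTPA1 also had 0 reads, and SFTPC had at most 8. Markers of immune, endothelial and fibroblast cells had at most 10 reads in a library apart from COL1A1, with 22 to 89. Bulk RNA cannot tell fewer cells carrying a transcript from less of it in each cell.

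MIB1 spans 21704957 to 21870953 on the plus strand, close to the centromere, so that nearly the whole of 18q lies beyond it. The guide sequences in the study's methods both match the coding part of exon 1 of transcript ENST00000261537.7. That stretch, 229 bases at chr18:21741584-21741812 on the plus strand of GRCh38, is shown 5′ to 3′ because any loss of the arm would start from a break within it, with the start codon in capitals.
MIB1 exon 1, coding part: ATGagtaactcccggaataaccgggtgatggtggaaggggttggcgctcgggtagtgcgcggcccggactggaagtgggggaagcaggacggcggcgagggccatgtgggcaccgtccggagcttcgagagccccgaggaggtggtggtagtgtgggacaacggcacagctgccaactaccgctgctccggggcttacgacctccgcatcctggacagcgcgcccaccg

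MIB1, a ubiquitin ligase gene of Notch signalling, was counted at 598 and 588 reads in the controls against 90 and 59 after dox (log2 fold change -2.58 ± 0.23, SE; adjusted p = 0.000375 in limma). It fell in both dox libraries, in the same samples whose distal genes are described next.

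No member reached the study's threshold of an adjusted p of at most 0.05 with a change of at least 2-fold (limma), which 0.0371% of all 16181 genes tested did. None had an adjusted p of at most 0.05 either, against 0.068% of all genes, and the lowest among the members was 0.167, for SERPINB5. The counts of members called were also 0 in edgeR and DESeq2, fitted like limma without the replicate number as a term. At an unadjusted p under 0.05 there were 11 members, 6 lower and 5 higher with dox, or 10.1% against 9.28% of all genes. No exact permutation test of single values was run, since its smallest two-sided p for 2 samples in each group is 0.333.

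The median log2 fold change of the 109 members was -0.0442, with 65 lower and 44 higher with dox, and the middle 50% lay between -0.19 and 0.09. The median of the 49 genes before MIB1 was -0.0553, with 28 lower and 21 higher. The 44 of them that start no later than 14057457 had a median of -0.0266. The other 5, which start from 20944612 on and lie within 1 Mb of MIB1, had -0.1333. The median of the members lay between these values. Over all genes tested the median was -0.0004. The median of the members was 0.0112 above that of the proximal genes, and this sign was not stable: the difference was -0.0078 in edgeR and -0.008 in DESeq2, and the members were the lower of the pair in 10 of 14 alternatives. Which side of MIB1 was lower could thus not be told from these libraries.

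For scale, if expression followed copy number and each cell started with 2 copies of 18q, losing 1 of them in 10% of the cells would give a log2 change of -0.0740, in 20% -0.152 and in 50% -0.415. Loss in 5% of the cells would give -0.0365. The difference between members and proximal genes, taken per library, had a pooled SD of 0.0424 between replicates, with 2 libraries in each group. Changes of -0.0365 or -0.0740 are of the order of that spread and could not be told from it. The smallest loss that these libraries could show was not tested, so detection of -0.152 is not claimed either. Whether larger losses are compatible with these values was not tested. The calculation takes no account of the stability of transcripts made before the cut or of a copy number other than 2.

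Within single libraries the shift was of the same order as the spread. Each member's log2 CPM (reads relative to library size on a log scale, after quantile normalization) was set against the gene's own 4-library mean, and the median over the members was 0.0445 and 0.0084 in no dox replicates 1 and 2, and -0.0302 and -0.0074 in dox replicates 1 and 2. The groups did not overlap, but no dox replicate 2 and dox replicate 2 were separated by less than the 2 no dox libraries were from each other. Among the genes before MIB1 the same medians were -0.0096, 0.0210, -0.0032 and -0.0327, where the groups overlapped. The difference between members and proximal genes was 0.0541 and -0.0125 without dox and -0.0270 and 0.0254 with dox, so the groups overlapped here too. Its mean was 0.0208 without dox and -0.0008 with dox, a difference of -0.0216.

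The sums of reads, which need no scaling between libraries, were compared next. The 109 members summed to 113912, 100949, 70009 and 80026 reads in no dox replicates 1 and 2 and dox replicates 1 and 2, or 0.764, 0.789, 0.679 and 0.734 times the reads of the genes before MIB1. Both dox ratios were below both no dox ratios, and the mean with dox was 0.910 of that without. A few genes carried this sum. MYL12B held 26.0% and MYL12A 11.9% of the proximal reads; they encode regulatory light chains of non-muscle myosin and are close paralogs, whose reads the counting could have split. Of the 5 proximal genes with most reads, all but TUBB6 had both dox libraries above both controls in log2 CPM after quantile normalization. In RPKM the groups overlapped for MYL12B (964 and 803 without dox, 1089 and 842 with dox) and for VAPA (94.3 and 86.8 against 99.2 and 91.0). The log2 fold change was furthest from 0 for MYL12A (log2 fold change 0.39 ± 0.09, SE; adjusted p = 0.174 in limma) and CHMP1B (0.35 ± 0.09, SE; adjusted p = 0.246 in limma), an endosomal sorting gene. Without the 4 members and 5 proximal genes that each held over 5% of their region's reads, the ratios were 1.45 and 1.45 without dox and 1.47 and 1.48 with dox, and the mean with dox was 1.02 times that without. The lower ratio with dox thus rested on the genes with most reads and was absent from the sums of the rest.

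**Figure D1:**
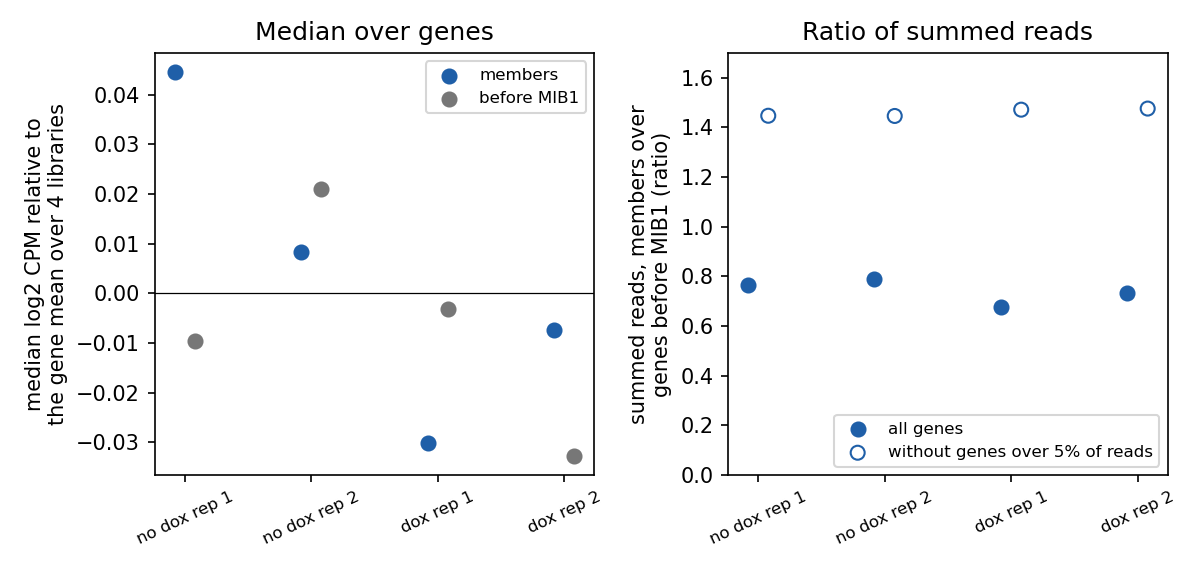
Left, the median over the members (blue) and over the genes before MIB1 (grey) of log2 CPM after subtraction of each gene's own mean. Right, the reads of all members divided by those of the genes before MIB1 in each library, with all genes (filled) and without those over 5% of the reads of their region (open); the filled ratios lie between 0.679 and 0.789 and the open ones between 1.45 and 1.48.

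Loss of the end of the arm takes everything beyond the break, while a deletion around the cut takes only the nearest genes, so the members were set out by distance from the end of MIB1. In windows of 10 Mb the median log2 fold changes were -0.0442 (19 genes, 12 lower), -0.0904 (18, 12 lower), -0.0300 (22, 13 lower), -0.0433 (18, 10 lower), 0.0010 (14, 7 lower) and -0.0908 (18, 11 lower). The second and the last windows had the lowest medians and the fifth stood at 0, and the medians followed no steady order with distance. Across the 109 members, Pearson's r of log2 fold change with distance was 0.028 and Spearman's rho 0.052; the genes share the 4 libraries and are not independent, and these are given as a description. Taken per library, both dox medians lay below both no dox medians in 4 of the 6 windows. In the first they were 0.0435 and 0.0642 without dox and -0.1115 and -0.0077 with dox, in the second 0.0727 and 0.0044 against -0.0499 and -0.0119, in the third 0.0571 and 0.0136 against -0.0030 and -0.0126, and in the fifth -0.0023 and 0.0203 against -0.0107 and -0.0139. In the last window the groups overlapped. In the fourth window both dox libraries, at 0.0426 and 0.0733, lay above both no dox libraries, at 0.0195 and -0.0517. The median log2 fold change of that window, -0.0433, had the opposite sign, so its direction depended on the summary used. The fifth window also differed, with a median log2 fold change of 0.0010 but lower dox medians.

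**Figure D2:**
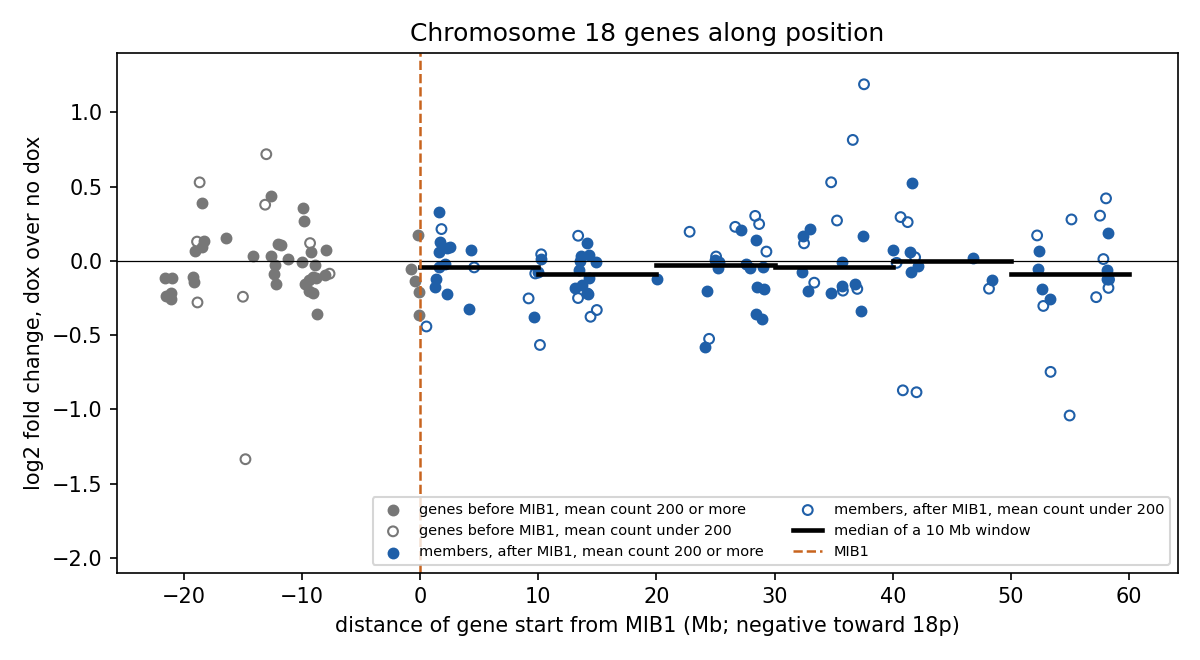
Log2 fold change (dox over no dox) of each chromosome 18 gene against the distance of its start from MIB1 in Mb, members in blue and genes before MIB1 in grey, filled where the mean count was 200 or more, with the median of each 10 Mb window as a black line. The window medians lie between -0.0908 and 0.0010, and the widest scatter is in genes with few reads.

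The scatter of single members followed their depth. Of the 109 members, 98 had a log2 fold change under 0.5 in size and 66 under 0.2, and the 2 of at least 1 rested on few reads. Both were named after their values were seen. ZNF236, a zinc finger gene, was covered by 62 and 46 reads in the controls and by 18 and 21 after dox (log2 fold change -1.04 ± 0.36, SE; adjusted p = 0.370 in limma). CCBE1, a secreted factor of lymphatic growth, was covered by 22 and 16 in the controls and by 37 and 30 after dox (1.19 ± 0.39, SE; adjusted p = 0.357 in limma). Among the 65 members with a mean count of at least 200, 43 were lower and 22 higher, with a median of -0.0485, and the 40 proximal genes at that depth had 24 lower and a median of -0.0726.

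The groups did not overlap in 26 members that were lower with dox, 23.9% against 19.1% of all genes, and in 15 that were higher, 13.8% against 19.5%. Among the genes before MIB1 the shares were 26.5% lower and 22.4% higher. The members thus had more genes separated toward lower than toward higher values, while among the genes before MIB1 both shares were above those of all genes. At a mean count of at least 200 the counts were 18 lower and 5 higher among the 65 members and 11 lower and 9 higher among the 40 proximal genes. The shares separated toward lower values were 27.7% and 27.5%, and those toward higher values 7.69% and 22.5%. The shares over all genes at that depth were not computed. The difference between both sides was not tested.

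The members nearest to MIB1 were taken first, since any deletion spreading from the cut reaches the nearest genes first. The genes set aside by name are not described here, wherever they lie, so this stretch was not surveyed in full. CTAGE1, 0.543 Mb beyond MIB1, had 0.414 and 0.455 RPKM (reads relative to transcript length and library size, as scaled by the authors) in the controls and 0.335 and 0.320 after dox, on 22 to 43 reads (log2 fold change -0.44 ± 0.35, SE). CABLES1, which encodes a binding partner of cyclin-dependent kinases, had 2.52 and 3.60 RPKM in the controls and 2.52 and 2.74 after dox (-0.17 ± 0.19, SE), and TMEM241 had 5.68 and 5.75 against 5.36 and 4.87 (-0.12 ± 0.16, SE). These values were slightly lower with dox and close to their errors. RIOK3, an atypical protein kinase gene 1.58 Mb beyond MIB1, stood at 26.8 and 26.7 RPKM in the controls and 33.3 and 32.7 after dox (log2 fold change 0.33 ± 0.11, SE; adjusted p = 0.363 in limma), both dox values above both controls. RMC1, of the complex that activates the endosomal GTPase RAB7, had 11.2, 12.0, 10.5 and 13.4 RPKM (0.06 ± 0.15, SE). The lowest and the highest of these 5, CTAGE1 and RIOK3, lie 0.543 and 1.58 Mb from MIB1, and RIOK3 had the smallest adjusted p of the 5.

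On the other side of the cut, the genes within 1 Mb before MIB1 were ROCK1, GREB1L, ESCO1, SNRPD1 and ABHD3, with log2 fold changes of -0.06, -0.13, 0.17, -0.21 and -0.36. Their median was -0.1333, lower than that of any window of members.

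The far end of 18q is the stretch that every terminal loss would take. HSBP1L1 stood at 93.4 and 88.1 RPKM without dox and 100.4 and 72.1 with dox, the highest level of any member, so the 2 dox libraries lay on either side of the controls. Its neighbour TXNL4A, a component of the U5 spliceosomal particle, had 18.7 and 17.5 RPKM without dox and 18.2 and 14.7 with dox; exons of the pair overlap on opposite strands, and whether counting used strand is not given in the sources used here. RBFA, a factor in the assembly of the small mitochondrial ribosomal subunit, had 8.38 and 6.76 RPKM without dox and 9.39 and 7.78 with dox. These values differ by less than their spread. ADNP2, a homeobox zinc finger gene, had 1.85 and 1.92 RPKM in the controls and 1.399 and 1.903 after dox. PARD6G, a cell polarity gene and the last member before the telomere, starting at 80157232, had 1.22 and 0.800 RPKM without dox and 0.929 and 0.926 with dox. In all 5 the groups overlapped, and their log2 fold changes lay between -0.18, for ADNP2, and 0.19, for RBFA.

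**Figure D3:**
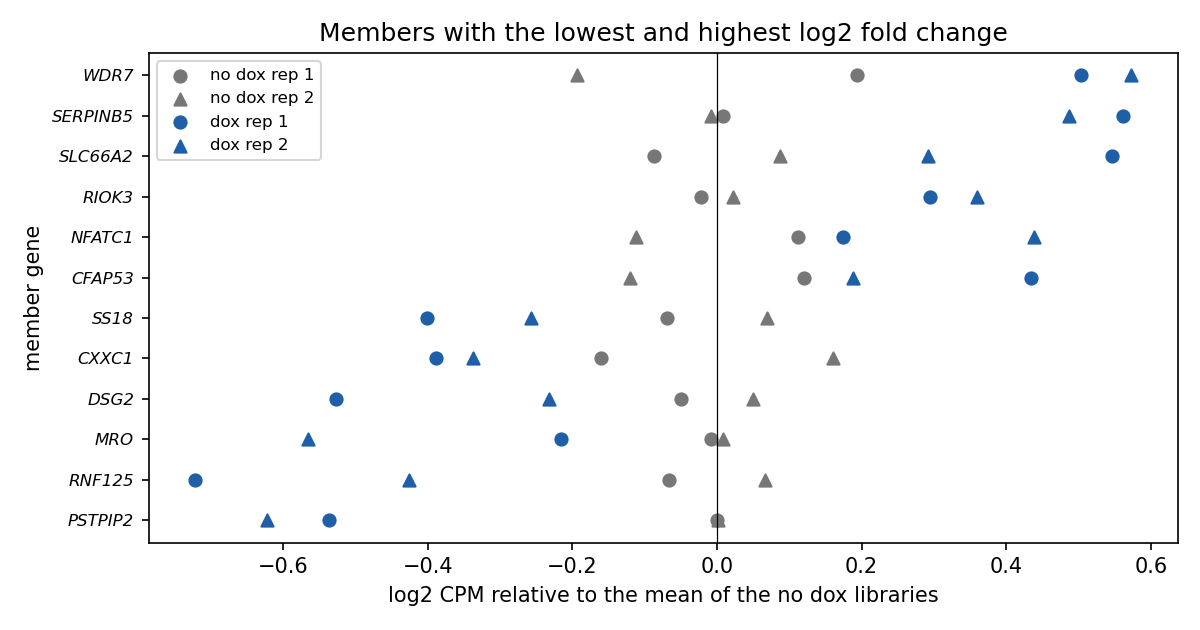
Log2 CPM in each library relative to the mean of the no dox libraries (horizontal axis) for the 12 members named as lowest and highest, no dox in grey and dox in blue, circles for replicate 1 and triangles for replicate 2. The 6 lowest genes have both dox libraries to the left of both controls and the 6 highest have both to the right, which the rule for naming them required, and none of the 12 passed the adjusted test.

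The 6 lowest and 6 highest members were taken among the 91 with 50 or more reads on average, and only where the groups did not overlap. PSTPIP2, which encodes an F-BAR protein that binds membranes and actin regulators, had 6.31 and 6.40 RPKM in the controls and 4.33 and 4.06 after dox (log2 fold change -0.58 ± 0.16, SE; adjusted p = 0.272 in limma). RNF125, a ubiquitin ligase gene of antiviral sensing, had 0.622 and 0.691 RPKM in the controls and 0.403 and 0.486 after dox (-0.57 ± 0.27, SE). MRO (Maestro) had 6.93 and 7.03 against 5.90 and 4.65 (-0.39 ± 0.15, SE). In these 3 the controls lay close together and the dox values below them. DSG2, the desmoglein of simple epithelia, had 24.95 and 25.3 RPKM without dox and 17.6 and 20.6 with dox (-0.38 ± 0.12, SE), and shares exons with an antisense gene. CXXC1, which encodes a CpG-binding subunit of a histone H3K4 methyltransferase, had 14.8 and 18.4 RPKM without dox and 12.4 and 12.7 with dox (-0.36 ± 0.14, SE), and SS18, a subunit of the BAF chromatin remodeller, had 14.3 and 15.6 without and 11.1 and 12.3 with (-0.33 ± 0.13, SE). These 6 lay at distances from 4.14 Mb (SS18) to 28.9 Mb (MRO), with other members of opposite sign between them.

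At the other end, SERPINB5, the serpin gene of maspin, had 19.2 and 18.7 RPKM in the controls and 27.7 and 25.6 after dox (log2 fold change 0.52 ± 0.12, SE; adjusted p = 0.167 in limma). Its dox and no dox values were well separated, and its unadjusted p, 0.000450, was the smallest among the members. WDR7, a gene of vesicle acidification, had 0.331 and 0.252 RPKM in the controls and 0.423 and 0.430 after dox (0.53 ± 0.24, SE), and shares exons with TXNL1 on the opposite strand. SLC66A2 had 2.615 and 2.99 RPKM without dox and 4.03 and 3.37 with dox (0.42 ± 0.20, SE). WDR7 rests on at most 110 reads in a library and SLC66A2 on at most 167. NFATC1 and CFAP53, described next, rest on at most 99 and 123. NFATC1, a calcineurin-dependent transcription factor gene, had 0.555 and 0.476 RPKM without dox and 0.597 and 0.698 with dox (0.30 ± 0.24, SE). CFAP53, a gene of motile cilia, had 2.83 and 2.42 without and 3.58 and 2.95 with (0.30 ± 0.23, SE), and RIOK3 was described above. The adjusted p-values of these 12 genes lay between 0.167 and 0.748 (limma).

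The members were then grouped by function, with lists drawn up from general knowledge. The large clusters of 18q held few expressed genes: of 7 desmosomal cadherins, which join neighbouring epithelial cells, only DSG2 and DSC2 reached the minimum, and DSC2 was covered by only 32, 21, 20 and 14 reads in the 4 libraries. Of 10 clade B serpins 4 were members, and next to SERPINB5 they were SERPINB8 (-0.04), SERPINB7 (0.02) and SERPINB2 (-0.89), the last with 37, 19, 14 and 9 reads; the values in parentheses are log2 fold changes. These neighbours in 1 cluster thus had values on both sides of 0.

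Among 18 members with roles in transcription and chromatin, 12 were lower and 6 higher, with a median of -0.1117. In limma 0 had an adjusted p of at most 0.05, while 3 had an unadjusted p under 0.05 (CXXC1, SS18 and ZNF236). This was 16.7% of the list against 9.28% of all genes, a difference that was not tested. In each of the other lists the count was 0 or 1. ZNF24, the most deeply read of the list, had 10.5, 9.67, 9.45 and 9.40 RPKM (-0.06 ± 0.12, SE). Membrane traffic and secretion had 14 members, 9 lower and 5 higher, with a median of -0.0759. GALNT1, which starts mucin-type O-glycosylation, had 25.9 and 27.1 RPKM without dox and 22.5 and 23.98 with dox (-0.16 ± 0.12, SE). LMAN1, a cargo receptor between the endoplasmic reticulum and the Golgi, had 16.4 and 16.7 without and 16.6 and 19.5 with (0.17 ± 0.12, SE), and the oxysterol-binding protein gene OSBPL1A had 15.9, 15.6, 15.5 and 17.0 (0.09 ± 0.12, SE). The group again held both signs.

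The 8 metabolic members ranged from -0.19 to 0.07 on the log2 scale, with a median of -0.0255. ACAA2, a thiolase of mitochondrial fatty acid oxidation, had 70.2 and 62.8 RPKM without dox and 64.1 and 63.0 with dox (log2 fold change -0.05 ± 0.10, SE). ME2, mitochondrial malic enzyme, had 13.3, 12.7, 12.4 and 12.4 RPKM (-0.04 ± 0.11, SE), and the cytochrome b5 gene CYB5A had 22.2, 18.9, 24.8 and 17.8 (0.06 ± 0.15, SE). These are well-expressed genes 27.9 to 52.4 Mb beyond the cut, and in each of the 3 the groups overlapped on the normalized scale of the test.

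Of 7 members in RNA processing and translation, 4 were lower and 3 higher, with a median of -0.1217. ELP2, a subunit of the Elongator complex that modifies tRNA, was the member with the most reads (12610, 10486, 8366 and 9182), which at these depths is 62.0 and 55.4 against 63.4 and 58.5 RPKM (0.04 ± 0.10, SE). RPRD1A, which binds the tail of RNA polymerase II and starts 14.1 Mb beyond MIB1, close to ELP2 at 14.3 Mb, had 49.1 and 46.1 RPKM without dox and 41.9 and 39.4 with dox (-0.21 ± 0.10, SE). NARS1, the asparaginyl-tRNA synthetase of the cytosol, had 60.2 and 59.9 without and 52.0 and 53.5 with (-0.17 ± 0.11, SE). SLC39A6, a zinc transporter gene on no list, lies between RPRD1A and ELP2 and was named for that place; it had 67.1 and 71.2 RPKM without dox and 56.8 and 59.6 with dox (-0.22 ± 0.12, SE). Of the 3 deeply read genes in this stretch, RPRD1A and SLC39A6 were lower without passing the test and ELP2 lay within its error of 0.

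The 9 members in cell division, DNA and cell death had 5 lower and 4 higher, with a median of -0.1578. SKA1, a kinetochore gene, had 6.61 and 6.54 RPKM without dox and 5.78 and 5.63 with dox (-0.18 ± 0.15, SE), MAPRE2, of the microtubule plus end, had 4.87, 5.91, 4.16 and 5.14 (-0.18 ± 0.16, SE), and MALT1, a paracaspase of NF-κB signalling, had 1.52, 1.19, 1.17 and 1.19 (-0.16 ± 0.19, SE). The cell-cycle genes picked before MIB1 did not pass the test either: TYMS, thymidylate synthase, had 130.4 and 128 RPKM without dox and 113 and 108 with dox (-0.22 ± 0.11, SE), and NDC80, a kinetochore gene, had 39.5, 39.9, 37.0 and 33.4 (-0.14 ± 0.12, SE). Without TYMS and NDC80 the proximal median was -0.0282, and the difference of the members from it was -0.016, against 0.0112 with them. Both genes lie below the proximal median of -0.0553, so leaving them out could only raise it. The cell-division genes among the members were kept, so nothing about the members follows from this change. Of 6 ubiquitin ligase components 4 were lower and 2 higher, among them RNF138 at 7.04, 6.48, 6.49 and 7.07 RPKM (0.01 ± 0.14, SE) and SOCS6 at 2.67, 2.78, 2.70 and 2.198 (-0.13 ± 0.17, SE). No gene of these 8 lists had an adjusted p of at most 0.05 (limma).

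Seen against the other chromosomes, both sides of chromosome 18 stood at the low end. The medians over protein-coding genes with at least 10 reads on the 22 others, X included, ran from -0.0253, for chromosome 17, to 0.0241, for chromosome 21, and their share of lower genes from 45.1% to 55.2%, against 59.6% for the members and 57.1% for the genes before MIB1. The members differed from the median of the other autosomes by -0.0395. This rank depended on 1 library: without no dox replicate 1 the median of the members was -0.0300, and 4 other chromosomes were lower, down to -0.0573 for chromosome 16. Without dox replicate 2, 6 other chromosomes were lower than the genes before MIB1. In the remaining alternatives both stayed below the other chromosomes. The members (109) and the genes before MIB1 (49) are fewer genes than most chromosomes hold, and whether their low medians have a cause was not tested.

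**Figure D4:**
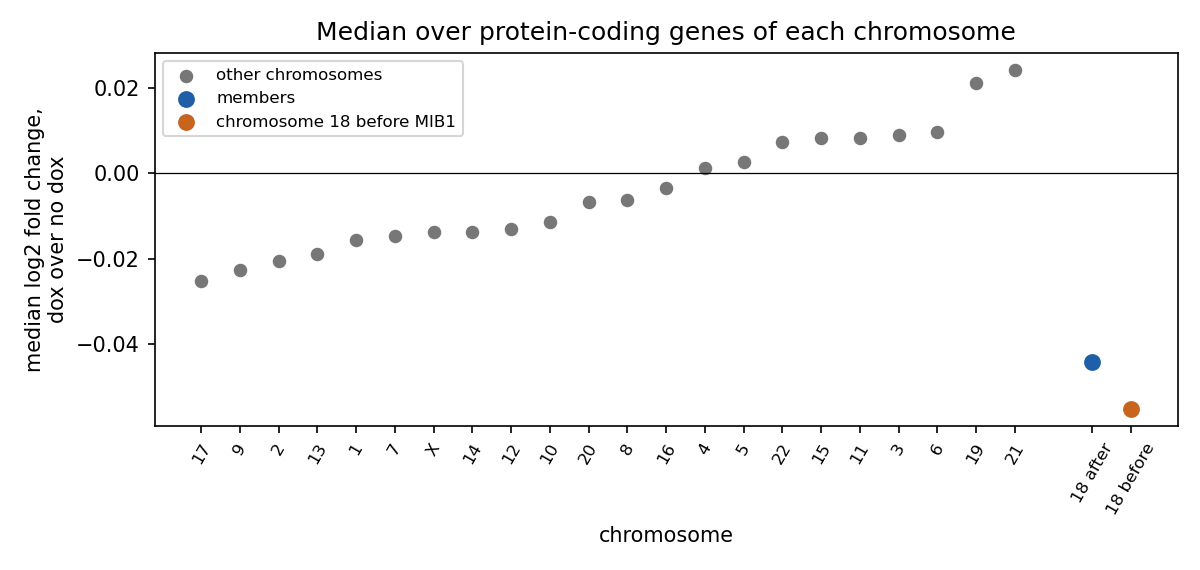
Median log2 fold change (dox over no dox) over the protein-coding genes of each chromosome, the 22 other chromosomes in grey in rising order, the members in blue and the chromosome 18 genes before MIB1 in orange. The members (-0.0442) and the genes before MIB1 (-0.0553) both lie below the lowest other chromosome (-0.0253); their own order turned in 10 of 14 alternatives.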

How the data were processed

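RNA-seq was performed on 4 samples of MIB1-iKO NCI-H838 cells at day 3, 2 without and 2 with dox, grouped by their labels. Per the study's methods, the authors discarded ribosomal reads, used GSNAP for alignment to GRCh38 and obtained gene-level exon counts from HTSeqGenie. These deposited counts are unscaled integers. The deposited RPKM were made by the authors from these reads and carry a further scaling per sample; they served for levels. The methods name a Smart-Seq low-input kit and a TruSeq stranded kit without saying which made these libraries, and the use of strand in counting is not given in the sources used here. Of the members, 39 share an exon with an annotated gene on the opposite strand and 18 with another on the same strand, so their reads are less certain.

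Identifiers were matched to GENCODE release 44 on GRCh38, and 57532 of 58302 matched. The 16181 genes kept by filterByExpr were fitted together, as in the study: counts scaled by library size, quantile normalization, voom weights and limma 3.58.1 in R 4.3.3, without covariates, with Benjamini-Hochberg adjustment over all genes tested. Calls needed an adjusted p no higher than 0.05 together with a 2-fold change in either direction (1 on the log2 scale). Errors of fold changes come from limma after moderation. Medians over members are descriptions without a test. The fit was tested on simulated data. Between any 2 libraries the chi-square per degree of freedom was 8.18 or more, so none repeated another. Intervals from read counts would cover counting error only, since reads carry no molecular identifiers.

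The members, the function lists and the naming rule were chosen with earlier results of these data known. Named genes are MIB1, the 5 members nearest to it and the 5 farthest, called members, the 6 lowest and 6 highest log2 fold changes among members that averaged 50 reads or more and had no overlap between groups, the 3 members with most reads in each list, TYMS, NDC80 and the genes within 1 Mb before MIB1. Alternatives were edgeR 4.0.16 (TMM, quasi-likelihood test), DESeq2 1.42.0, voom with TMM or library size only, other count filters, limma on RPKM with a pseudocount of 0.1 or 1, replicate number as a blocking factor, removal of the trend with GC content and transcript length (known for 99.7% of genes tested), other member lists and comparators, and leaving out each library. The medians of the other chromosomes under these alternatives were added after the data were seen.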

Additional observations from a re-analysis of the deposited data

How the results depend on the processing

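No member was called in 9 of the 10 other fits with a test. Without a count filter, on log2(RPKM + 0.1) and on log2(RPKM + 1), 0 of all genes were called. Those fits thus say nothing about the members in particular. With the replicate number as a block, 1 member was called (CCBE1, 1.22) and 12 had an adjusted p of at most 0.05, 9 lower and 3 higher, or 11.01% of members against 7.13% of all genes (1154). The meaning of that number is not in the labels, and with 2 pairs the correlation of same-numbered deviations, 0.134, does not establish a pairing. The block also leaves fewer degrees of freedom to measure the spread, so its p-values rest more on limma's moderation. In the main fit 11 of all genes had an adjusted p of at most 0.05 (limma). The median of the members stayed below 0 in every alternative. It moved by more than the SD between replicates (0.0213) on log2(RPKM + 0.1), to -0.0702, and ranged from -0.0687 to -0.0293 with 1 library left out. The difference from the proximal genes had no fixed sign: it ranged from -0.0323 to 0.0413 with 1 library left out and from -0.0184 (all gene types) to 0.0241 (mean count of at least 200) in the other alternatives that used chromosome 18, and was -0.0395 against the other autosomes. The dox ratio of summed reads, 0.910, was 1.02 without genes over 5% of reads and 0.883 on RPKM, and ranged from 0.874 to 0.946 with 1 library left out.

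Of the 109 members, 58 kept their sign with each library left out, 37 lower and 21 higher. Among the 47 named genes, 17 changed sign when 1 library was left out, and none did in another alternative. Their ranges of log2 fold change were -0.42 to 0.0555 for CABLES1, -0.12 to 0.24 for RMC1, -0.28 to 0.16 for HSBP1L1, -0.26 to 0.0174 for TXNL4A, -0.42 to 0.0405 for ADNP2, -0.40 to 0.19 for PARD6G, -0.60 to 0.0903 for DSC2, -0.24 to 0.25 for SERPINB7, -0.32 to 0.25 for SERPINB8, -0.0066 to 0.18 for OSBPL1A, -0.15 to 0.28 for CYB5A, -0.11 to 0.0179 for ACAA2, -0.0132 to 0.0891 for ELP2, -0.35 to 0.0456 for MALT1, -0.28 to 0.0193 for SOCS6, -0.0568 to 0.0866 for RNF138 and -0.21 to 0.0943 for ROCK1. MIB1 kept its direction but was not called without a count filter (-2.58, adjusted p = 0.613), on log2(RPKM + 0.1) (-2.33, 0.108) or on log2(RPKM + 1) (-1.34, 0.0962) in limma. Depth limits single members: the 18 with a mean count under 50 had a middle 50% from -0.50 to 0.25, against -0.18 to 0.07 for the other 91.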
